A study of Triticum aestivum with 12 samples.

Results

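The interaction of cold acclimation and freezing was measured in crowns of the wheat cultivar Jing411. It asks, gene by gene, whether a day of freezing changed a transcript differently in plants that had been cold acclimated and in plants that had not. All 12 RNA sequencing libraries of the series entered it, in 4 groups of 3 biological replicates. In LTAF, 28 days at 4 °C were followed by a freeze of 24 hours at -5 °C, and LTA had the 28 days at 4 °C alone. In NTGF the same freeze followed 28 days at 20 °C, and NTG had these 28 days at 20 °C alone. All groups are a single cultivar, so the values describe Jing411 and no other wheat. The interaction term of a gene is the log2 fold change of LTAF against LTA minus the log2 fold change of NTGF against NTG. A positive term means that freezing moved the transcript higher, or less far down, in acclimated plants than in unacclimated plants, and a negative term means the opposite.

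Cold acclimation is the gain in freezing tolerance that winter cereals make during weeks at low temperatures above freezing. It is known to involve the accumulation of sugars, changes in membrane lipids and the expression of cold-regulated genes, many of which act in protecting proteins and membranes from loss of water. The crown is the short stem base that holds the shoot meristem, and its survival decides whether a winter cereal regrows in spring. A transcript already raised by weeks of cold may change little in a freeze that raises it in plants grown warm, and an interaction term measures such a difference without naming its source.

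Some properties of the libraries touch every value below. The crown is named in the extraction protocol, while the labelled tissue field reads "SEEDING", and no marker gene could check either, since 0 of 128497 gene identifiers were matched to a gene name. The freeze began at 4 °C for LTAF and at 20 °C for NTGF, so an effect of acclimation and one of the smaller drop in temperature cannot be told apart, and the same holds for growth or stage. Total counts ran from 17871036 to 21491305 per library. Across genes, the rank correlation between replicates ran from 0.917 to 0.978 in LTAF, from 0.970 to 0.979 in LTA, from 0.932 to 0.947 in NTGF and from 0.964 to 0.978 in NTG, with LTAF replicate 2 and NTGF replicate 1 farthest from their groups. The 16 lowest-numbered high-confidence models of chromosome 1A, a set chosen after its values were seen, summed to 123, 154 and 102 counts in the LTAF libraries, 116, 118 and 96 in LTA, 18, 3 and 4 in NTGF, and 109, 126 and 117 in NTG. In this stretch NTGF was low in each library, and 3 of the 4 models that could be tested were called positive, with terms of 3.59 to 3.83. There, a response to freezing and a difference of the NTGF plants in something other than treatment cannot be told apart. NTGF enters every term, and such a difference was not tested for other genes.

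The difference between frozen and unfrozen crowns was not the same in acclimated and unacclimated plants for many transcripts. Of 69693 gene models tested, 3566 had a positive term (5.12%) and 4122 a negative term (5.91%) at an adjusted p under 0.05 in edgeR's quasi-likelihood test with Benjamini-Hochberg adjustment, together 11.0% of the models. Called terms of the 2 directions differed in size, but positive genes were also the less abundant, and in rare genes only larger terms could be called. Positive terms had a median of 2.18 on the log2 scale (interquartile range 1.37 to 3.36), and 1916 of them were at least 4-fold. Negative terms had a median of -1.29 (-1.76 to -1.01), and 736 were at least 4-fold. Over all models tested the median term was -0.05. RNA came from whole crowns, so fewer cells of a type and less RNA per cell cannot be told apart in any of these values.

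The differences were visible in single libraries. A gene was counted as having separated libraries when every pairing of LTAF with LTA libraries gave a freezing response on the same side of every pairing of NTGF with NTG libraries. That was so for 3262 of the 3566 positive genes (91.5%), against 7.96% of all models tested, and for 3979 of the 4122 negative genes (96.5%), against 9.62% of all models. These shares come from the libraries that chose the genes and support nothing further. Scaling each library by its total in place of TMM (trimmed mean of M-values) moved the median of all terms by 0.23 and changed the split of the calls to 5621 positive and 2169 negative, so that 72.2% were positive, against 46.4%. TMM factors ran from 1.18 to 1.23 in the NTG libraries and from 0.84 to 0.998 in the libraries of the other groups. A higher factor lowers the CPM of a library. The direction of a term is relative to the scaling used, here to the bulk of genes.

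**Figure D1:**
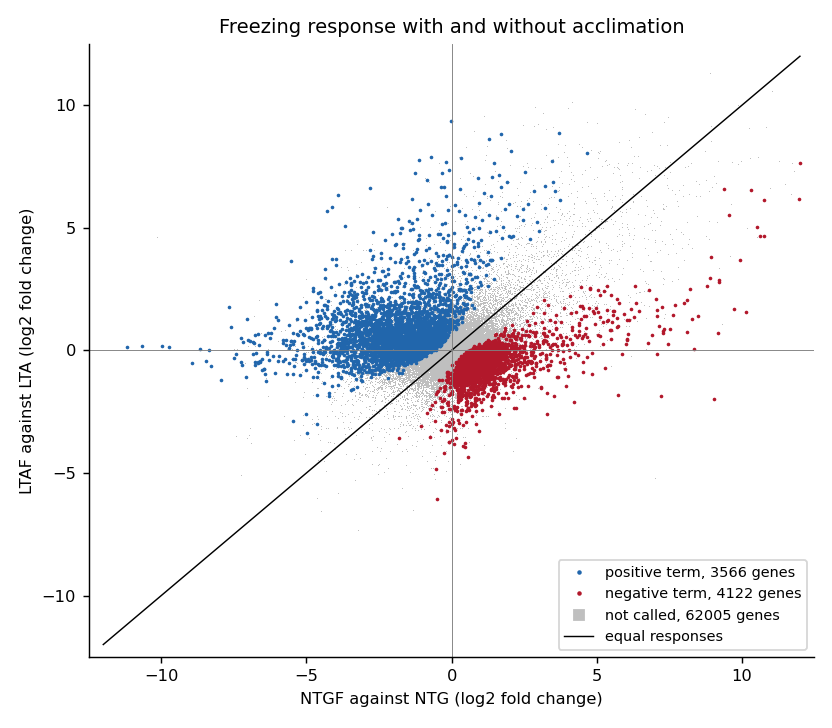
Log2 fold change of LTAF against LTA (vertical axis) and of NTGF against NTG (horizontal axis) for each of 69693 gene models, with values beyond 12 drawn at 12. Models with a positive term (3566, blue) lie above the line of equal responses and models with a negative term (4122, red) below it; many blue points lie left of 0 on the horizontal axis and many red points right of it.

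The called genes were sorted by which of the freezing responses was itself called in the same fit. The simple comparisons use the same libraries as the interaction, so these patterns describe the called genes and are not further evidence. As background, NTGF was higher than NTG in 14.2% of models and lower in 11.7%, while LTAF was higher than LTA in 3.99% and lower in 1.92%. Among positive genes, 2647 (74.2%) were lower in NTGF than in NTG with no call between LTAF and LTA. Among negative genes, 3103 (75.3%) were higher in NTGF than in NTG with no call between LTAF and LTA. Genes called in acclimated plants alone were fewer, with 436 positive genes higher in LTAF and 384 negative genes lower in LTAF. Calls in opposite directions were made for 73 positive genes, lower in NTGF and higher in LTAF, and for 117 negative genes, higher in NTGF and lower in LTAF. Both responses had the same direction in 30 positive genes that were lower in both frozen groups, 44 positive genes that were higher in both, 55 negative genes that were higher in both and 2 negative genes that were lower in both. In 336 positive and 461 negative genes neither response was called alone.

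The level of a pattern in a library is given as the median log2 CPM over its genes, where CPM is the count relative to library size after TMM adjustment, and the log2 scale has a prior count of 2. A name such as "higher in NTGF alone" means only that the other freezing response, here LTAF against LTA, was not called. It does not say that LTA and LTAF were level with NTG. Genes lower in NTGF alone lay at 1.59 ± 0.29 in LTAF, 1.37 ± 0.20 in LTA, 0.37 ± 0.23 in NTGF and 2.26 ± 0.14 in NTG (SD, n = 3 each). Genes higher in NTGF alone lay at 4.13 ± 0.07 in LTAF, 4.39 ± 0.08 in LTA, 4.18 ± 0.14 in NTGF and 3.22 ± 0.09 in NTG. In both patterns the groups that stood farthest out were on the unacclimated side, NTGF at the bottom in the first and NTG at the bottom in the second. Their libraries did not overlap with those of the other groups. A call between NTGF and NTG is what sorted these genes, so this describes the sorting and is not a further result. The second pattern held the more abundant genes in all 4 groups.

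Over all positive genes, whatever their pattern, NTGF had the lowest of the 4 group means in 2355 (66.0%), against 24.9% of all models tested, and LTA in 1148 (32.2%), against 20.7%. NTG had the highest mean in 2113 (59.3%), against 29.9%, and LTAF in 1125 (31.5%), against 21.9%. A positive term thus went with a low NTGF or LTA mean, as the term itself requires, and NTGF took the larger part. Over all negative genes, NTG had the lowest mean in 2930 (71.1%), against 26.6%, and LTAF in 1145 (27.8%), against 27.9%. The highest mean was that of LTA in 2114 (51.3%), against 22.2%, and that of NTGF in 1801 (43.7%), against 26.1%. For LTAF the share with the lowest mean was near that of all models. A low NTG and a high LTA or NTGF are likewise what the choice by a negative term favours.

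**Figure D2:**
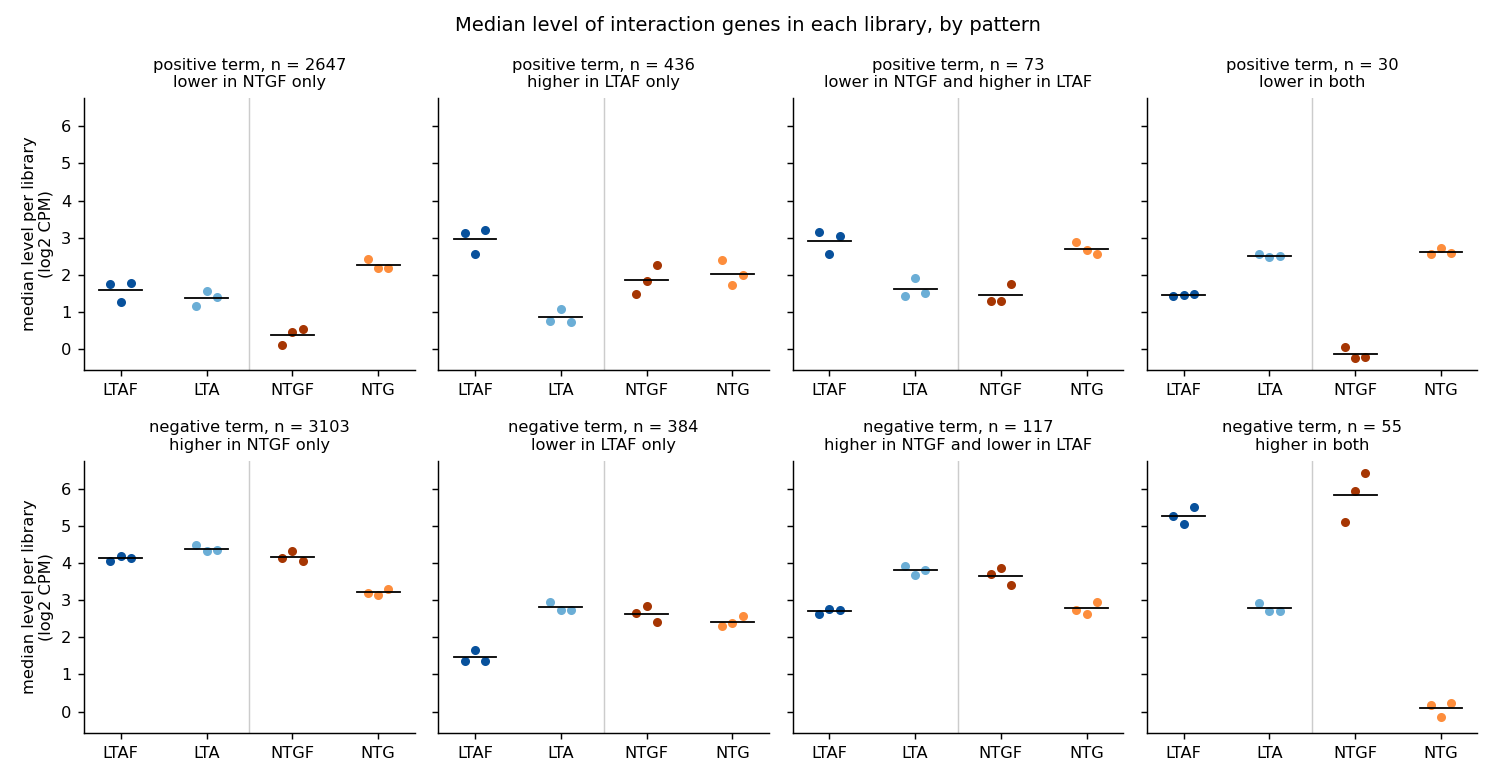
Median log2 CPM over the genes of a pattern in each library (points) with the mean of 3 libraries (line), for 4 patterns of positive genes (top) and 4 of negative genes (bottom); groups run LTAF, LTA, NTGF, NTG. Genes lower in NTGF alone have their lowest points in NTGF (mean 0.37), and genes higher in NTGF alone their lowest points in NTG (mean 3.22).

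Genes lower in NTGF alone were divided by the call of LTA against NTG, which shares the NTG libraries with the freezing response and the term. A high NTG makes both LTA and NTGF lower against it, so the counts are a description alone. In 1239 of the 2647, LTA was already lower than NTG, and their level was 0.92 ± 0.42 in LTAF, 0.53 ± 0.25 in LTA, 0.44 ± 0.30 in NTGF and 2.44 ± 0.20 in NTG. For these genes LTAF, LTA and NTGF overlapped and NTG stood above all 3, and LTAF against NTGF was not called in 920. In 1204 genes LTA against NTG was not called, and the level was 1.94 ± 0.30 in LTAF, 1.77 ± 0.17 in LTA, 0.25 ± 0.13 in NTGF and 2.0 ± 0.08 in NTG. Here NTGF stood alone at the bottom, and LTAF was called higher than NTGF in 1170 of them. In the other 204 genes LTA was higher than NTG, with levels of 3.66 ± 0.16 in LTAF, 3.65 ± 0.05 in LTA, 0.61 ± 0.06 in NTGF and 2.51 ± 0.08 in NTG, and LTAF was called higher than NTGF in all 204. Over all models LTA was called lower than NTG in 18.1% and higher in 20.0%, and LTAF was called higher than NTGF in 20.2% and lower in 19.6%. By arithmetic, LTAF against NTGF is the term plus LTA against NTG. In positive genes with LTA not called lower than NTG, a higher LTAF thus follows largely from the choice of genes. Those counts are a description alone.

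The table pairs its identifiers with no names or functions, so the genes below stand for their patterns by identifier alone. Identifiers ending in LC are low-confidence models, and U marks models without a chromosome. TraesCSU01G121800LC had 149.4, 163.7 and 153.8 CPM in LTAF, 125.2, 71.1 and 129.5 CPM in LTA, 0.0511, 0.0532 and 1.75 CPM in NTGF, and 47.0, 101.3 and 128.9 CPM in NTG. Each NTGF library lay far below every other library, and NTGF replicate 3 held most of what was left. Its term was 7.77 ± 1.08 (SE; edgeR adjusted p = 0.00468), and 11.14, a fitted value against 2 counts in NTGF, without NTGF replicate 3. TraesCSU01G259400LC had 57.3, 92.9 and 55.8 CPM in LTAF, 64.0, 45.6 and 51.6 CPM in LTA, 1.07, 0 and 0.338 CPM in NTGF, and 43.3, 61.5 and 62.0 CPM in NTG. The LTAF, LTA and NTG libraries of this gene overlapped, and those of NTGF were again apart. Its term was 7.20 ± 0.80 (edgeR adjusted p = 0.00154), and 8.69 without NTGF replicate 1. In both genes, as in the stretch of chromosome 1A, freezing and another difference of the NTGF plants cannot be told apart.

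The most abundant positive gene with separated libraries was TraesCS1D01G411300. It had 2879, 2618 and 3356 CPM in LTAF, 4102, 3002 and 3078 CPM in LTA, 243.8, 371.1 and 202.2 CPM in NTGF, and 1689, 1652 and 2058 CPM in NTG. Acclimated libraries were above NTG libraries with and without a freeze, and the NTGF libraries lay below all others. The response was -0.20 ± 0.23 for LTAF against LTA, which was not called, and -2.72 ± 0.25 for NTGF against NTG, which gave a term of 2.52 ± 0.33 (SE; edgeR adjusted p = 0.00272).

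Genes higher in NTGF alone were also divided by the call of LTA against NTG, which shares the NTG libraries with the freezing response and the term, so that a low NTG raises both and the counts are a description alone. In 2283 of the 3103, LTA was called higher than NTG, and their level was 4.54 ± 0.04 in LTAF, 4.78 ± 0.08 in LTA, 4.22 ± 0.18 in NTGF and 3.26 in NTG. NTG stood below the other 3 groups there. Between frozen groups, LTAF was not called against NTGF in 1282 of these, higher in 803 and lower in 198. In 763 genes LTA against NTG was not called, and the level was 2.84 ± 0.16 in LTAF, 3.13 ± 0.13 in LTA, 4.00 ± 0.03 in NTGF and 3.02 in NTG. In that subset NTGF was the group that stood out, and LTAF was called lower than NTGF in 739. LTAF against NTGF is the term plus LTA against NTG, so this count follows largely from the choice of genes. A further 57 genes were lower in LTA than in NTG. Over all models tested, LTA was called higher than NTG in 20.0% and lower in 18.1%. LTAF was called higher than NTGF in 20.2% of all models and lower in 19.6%.

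TraesCS5B01G218600 had the largest term of this pattern under the naming rule. It had 783.8, 344.9 and 665.6 CPM in LTAF, 36.2, 284.3 and 243.9 CPM in LTA, 562.7, 908.9 and 1268 CPM in NTGF, and 0.844, 1.26 and 1.13 CPM in NTG. Every library from a cold or frozen group lay above every NTG library, and LTA replicate 1 lay below the other LTA libraries. The response was 1.67 ± 0.61 for LTAF against LTA, not called, and 9.72 ± 0.88 for NTGF against NTG, a term of -8.05 ± 0.97 (SE; edgeR adjusted p = 0.00226). TraesCS5A01G219400 had 124.4, 55.6 and 119.1 CPM in LTAF, 14.8, 50.4 and 46.6 CPM in LTA, 24.2, 92.3 and 84.3 CPM in NTGF, and 0.154, 0.153 and 0.235 CPM in NTG. As in the gene before, LTA replicate 1 was the lowest LTA library, NTG was apart from all others and the frozen groups overlapped. Its term was -7.09 ± 0.94 (edgeR adjusted p = 0.00394).

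The most abundant negative gene with separated libraries was TraesCS4A01G293000, which had 1415, 1721 and 1495 CPM in LTAF, 1971, 1700 and 1588 CPM in LTA, 3017, 1743 and 1432 CPM in NTGF, and 802.9, 934.3 and 1076 CPM in NTG. The NTG libraries lay below all others, and NTGF replicate 1 above all others. Its term of -1.32 ± 0.35 (SE; edgeR adjusted p = 0.0361) was not called in 8 of the 12 fits that leave out 1 library, nor with library totals. Over all alternatives its adjusted p ran from 0.00582 to 0.599.

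Genes with a response called in acclimated plants alone had their distinct levels on the acclimated side, which the sorting by LTAF against LTA favours. The 436 genes higher in LTAF alone lay at 2.97 ± 0.35 in LTAF, 0.85 ± 0.19 in LTA, 1.86 ± 0.40 in NTGF and 2.03 ± 0.34 in NTG. LTA was called lower than NTG in 254 of them, against 18.1% of all models tested, a call that shares libraries with the sorting. In these 254 genes LTA lay at -0.16 ± 0.20, against 2.11 in NTG, while LTAF lay at 2.54 ± 0.40 and NTGF at 2.07 ± 0.42. The LTAF, NTGF and NTG levels of those genes overlapped, and LTA was the group apart. The 384 genes lower in LTAF alone lay at 1.46 ± 0.18 in LTAF, 2.82 ± 0.13 in LTA, 2.64 ± 0.22 in NTGF and 2.42 ± 0.14 in NTG. In 211 of these LTA against NTG was not called, and LTAF stood alone below the other groups at 1.11 ± 0.19. These counts moved with single libraries, to 79 higher and 74 lower genes without LTA replicate 1, and to 1154 higher and 1461 lower genes without LTAF replicate 2. Without LTAF replicate 2 and NTGF replicate 1, an alternative chosen after seeing the data, 1545 genes were higher in LTAF alone and 1782 lower.

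TraesCS2B01G045300 had 13.2, 4.62 and 13.4 CPM in LTAF, 0.330, 0.300 and 0.157 CPM in LTA, 0.511, 0.851 and 4.17 CPM in NTGF, and 9.10, 2.15 and 4.05 CPM in NTG. The LTA libraries were below all others, and NTGF and NTG overlapped. Its term was 6.76 ± 1.20 (SE; edgeR adjusted p = 0.0103), 8.17 without NTGF replicate 3 and 6.03 without NTG replicate 1. TraesCSU01G009400 had 8.61, 2.57 and 9.70 CPM in LTAF, 0.110, 0.2497 and 0.315 CPM in LTA, 0.869, 1.76 and 13.0 CPM in NTGF, and 24.4, 8.20 and 9.09 CPM in NTG. Again the LTA libraries were lowest, while the NTGF libraries spread widely and overlapped both LTAF and NTG. Its term of 6.33 ± 1.46 (edgeR adjusted p = 0.0242) was not called in 6 of the 12 fits that leave out 1 library, with adjusted p up to 0.073, and was 8.30 without NTGF replicate 3 and 5.64 without NTG replicate 1.

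In the other direction, TraesCS7B01G264800 had 2.05, 3.25 and 1.80 CPM in LTAF, 30.8, 31.5 and 34.0 CPM in LTA, 23.1, 17.3 and 10.53 CPM in NTGF, and 16.5, 18.2 and 19.3 CPM in NTG. LTAF was the lowest group with no overlap, LTA the highest, and NTGF and NTG overlapped. Its term was -3.67 ± 0.38 (SE; edgeR adjusted p = 0.000712). TraesCS1B01G523300LC had 1.88, 1.82 and 2.86 CPM in LTAF, 11.3, 8.34 and 11.9 CPM in LTA, 1.48, 3.14 and 0.507 CPM in NTGF, and 0.729, 0.843 and 0.377 CPM in NTG. LTA was the high group there, and LTAF lay within the range of NTGF. Its term was -3.63 ± 0.70 (edgeR adjusted p = 0.012), and -2.87 without NTGF replicate 2.

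By their medians, genes that moved in opposite directions in the freeze had 2 pairs of similar groups, a shape that single genes need not share. The 73 genes lower in NTGF and higher in LTAF lay at 2.91 ± 0.31 in LTAF, 1.61 ± 0.26 in LTA, 1.44 ± 0.27 in NTGF and 2.70 ± 0.16 in NTG. The 117 genes higher in NTGF and lower in LTAF lay at 2.71 ± 0.08 in LTAF, 3.81 ± 0.12 in LTA, 3.67 ± 0.23 in NTGF and 2.78 ± 0.17 in NTG. In both sets the medians of LTA and NTGF overlapped at one end and those of LTAF and NTG at the other. LTA was called lower than NTG in 50 of the 73 and higher than NTG in 69 of the 117. Over all models tested these shares were 18.1% and 20.0%. The calls share libraries with the sorting, so the counts are a description alone. The 2 sets numbered 11 and 28 genes without LTA replicate 1, and 473 and 690 without LTAF replicate 2.

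TraesCS4B01G143500 had 60.3, 35.4 and 67.6 CPM in LTAF, 12.8, 21.1 and 12.7 CPM in LTA, 11.96, 11.8 and 22.5 CPM in NTGF, and 53.8, 24.9 and 27.4 CPM in NTG. Its groups fell into those same pairs, with a term of 3.01 ± 0.54 (SE; edgeR adjusted p = 0.0103). TraesCS1B01G294300 had 2.17, 2.22 and 2.67 CPM in LTAF, 0.989, 1.10 and 0.420 CPM in LTA, 1.69, 4.26 and 3.32 CPM in NTGF, and 10.9, 13.9 and 10.1 CPM in NTG. Here NTG was the group apart, LTA was lowest, and LTAF overlapped NTGF; the term was 3.39 ± 0.50 (edgeR adjusted p = 0.00484).

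The negative genes named for this pattern had their highest level in LTA. TraesCS5A01G109300 had 9.75, 4.96 and 9.70 CPM in LTAF, 29.1, 36.9 and 38.5 CPM in LTA, 2.45, 2.98 and 2.65 CPM in NTGF, and 0.0768, 0.115 and 0.235 CPM in NTG. The groups did not overlap and were ordered LTA, LTAF, NTGF, NTG by level. Its term was -6.33 ± 0.47 (SE; edgeR adjusted p = 6.6e-05). TraesCS5D01G121500 had the same order, with 32.6, 18.1 and 24.5 CPM in LTAF, 61.2, 74.1 and 71.7 CPM in LTA, 6.29, 8.30 and 7.66 CPM in NTGF, and 0.576, 0.498 and 0.330 CPM in NTG. Its log2 fold change was -1.46 ± 0.22 for LTAF against LTA and 3.95 ± 0.27 for NTGF against NTG, both called, with a term of -5.41 ± 0.35 (edgeR adjusted p = 1.63e-05).

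Where both responses had the same direction, the interaction was a difference in size. The 55 negative genes higher in both frozen groups lay at 5.28 ± 0.22 in LTAF, 2.79 ± 0.12 in LTA, 5.83 ± 0.67 in NTGF and 0.10 ± 0.21 in NTG. The medians of LTAF and NTGF overlapped there and those of the unfrozen groups did not, with NTG lowest of the group means in 49 of 55. The frozen groups were not alike gene by gene, since NTGF had the highest mean in 44 of the 55 and LTAF was called lower than NTGF in 27 and higher in 8. The 44 positive genes higher in both lay at 4.85 ± 0.43 in LTAF, -0.11 ± 0.08 in LTA, 4.77 ± 0.56 in NTGF and 2.38 ± 0.79 in NTG. Again the medians of the frozen groups overlapped, with LTAF called higher than NTGF in 8, lower in 5 and not called in 31, and LTA was the lowest group mean in all 44. In these 2 sets LTA was called higher than NTG in 42 of the 55 and lower than NTG in 39 of the 44. Over all models tested LTA was called higher in 20.0% and lower in 18.1%. Such calls share libraries with the sorting and are a description alone. The 30 positive genes lower in both lay at 1.44 ± 0.03 in LTAF, 2.52 ± 0.03 in LTA, -0.13 ± 0.17 in NTGF and 2.62 ± 0.10 in NTG. In that set the medians of the unfrozen groups lay close together, although LTA was called higher than NTG in 7 genes and lower in 8. The frozen groups were apart, with LTAF called higher than NTGF in 28, which the choice of genes by a positive term favours.

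TraesCS5D01G318500 had 119.2, 120.6 and 122.9 CPM in LTAF, 12.4, 8.39 and 7.71 CPM in LTA, 432.2, 479.3 and 488.8 CPM in NTGF, and 0.384, 0.383 and 0.659 CPM in NTG. All 4 groups were apart, in the order NTGF, LTAF, LTA, NTG. Its term was -6.27 ± 0.32 (SE; edgeR adjusted p = 2.94e-06). TraesCS2B01G478700 had 28.2, 22.1 and 27.2 CPM in LTAF, 18.2, 16.7 and 14.8 CPM in LTA, 34.5, 42.9 and 27.5 CPM in NTGF, and 0.307, 0.268 and 0.282 CPM in NTG. The frozen groups overlapped, and NTG alone was near 0. Its term was -6.26 ± 0.29 (edgeR adjusted p = 2.94e-06).

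TraesCS6B01G122600, lower in both, had 184.1, 151.0 and 223.6 CPM in LTAF, 409.0, 345.8 and 367.3 CPM in LTA, 1.58, 0.851 and 1.63 CPM in NTGF, and 57.3, 34.2 and 61.3 CPM in NTG. The groups did not overlap, LTA was highest and NTGF lowest, and LTAF stayed above unfrozen NTG. Its term was 4.22 ± 0.39 (SE; edgeR adjusted p = 0.000316). TraesCS5D01G068800 had 8.84, 16.9 and 8.14 CPM in LTAF, 93.0, 67.7 and 88.4 CPM in LTA, 1.94, 1.54 and 5.01 CPM in NTGF, and 137.6, 114.3 and 125.9 CPM in NTG. Both frozen groups lay below both unfrozen groups, and LTAF stayed above NTGF. Its term was 2.60 ± 0.55 (edgeR adjusted p = 0.0172), and 3.29 without NTGF replicate 3.

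**Figure D3:**
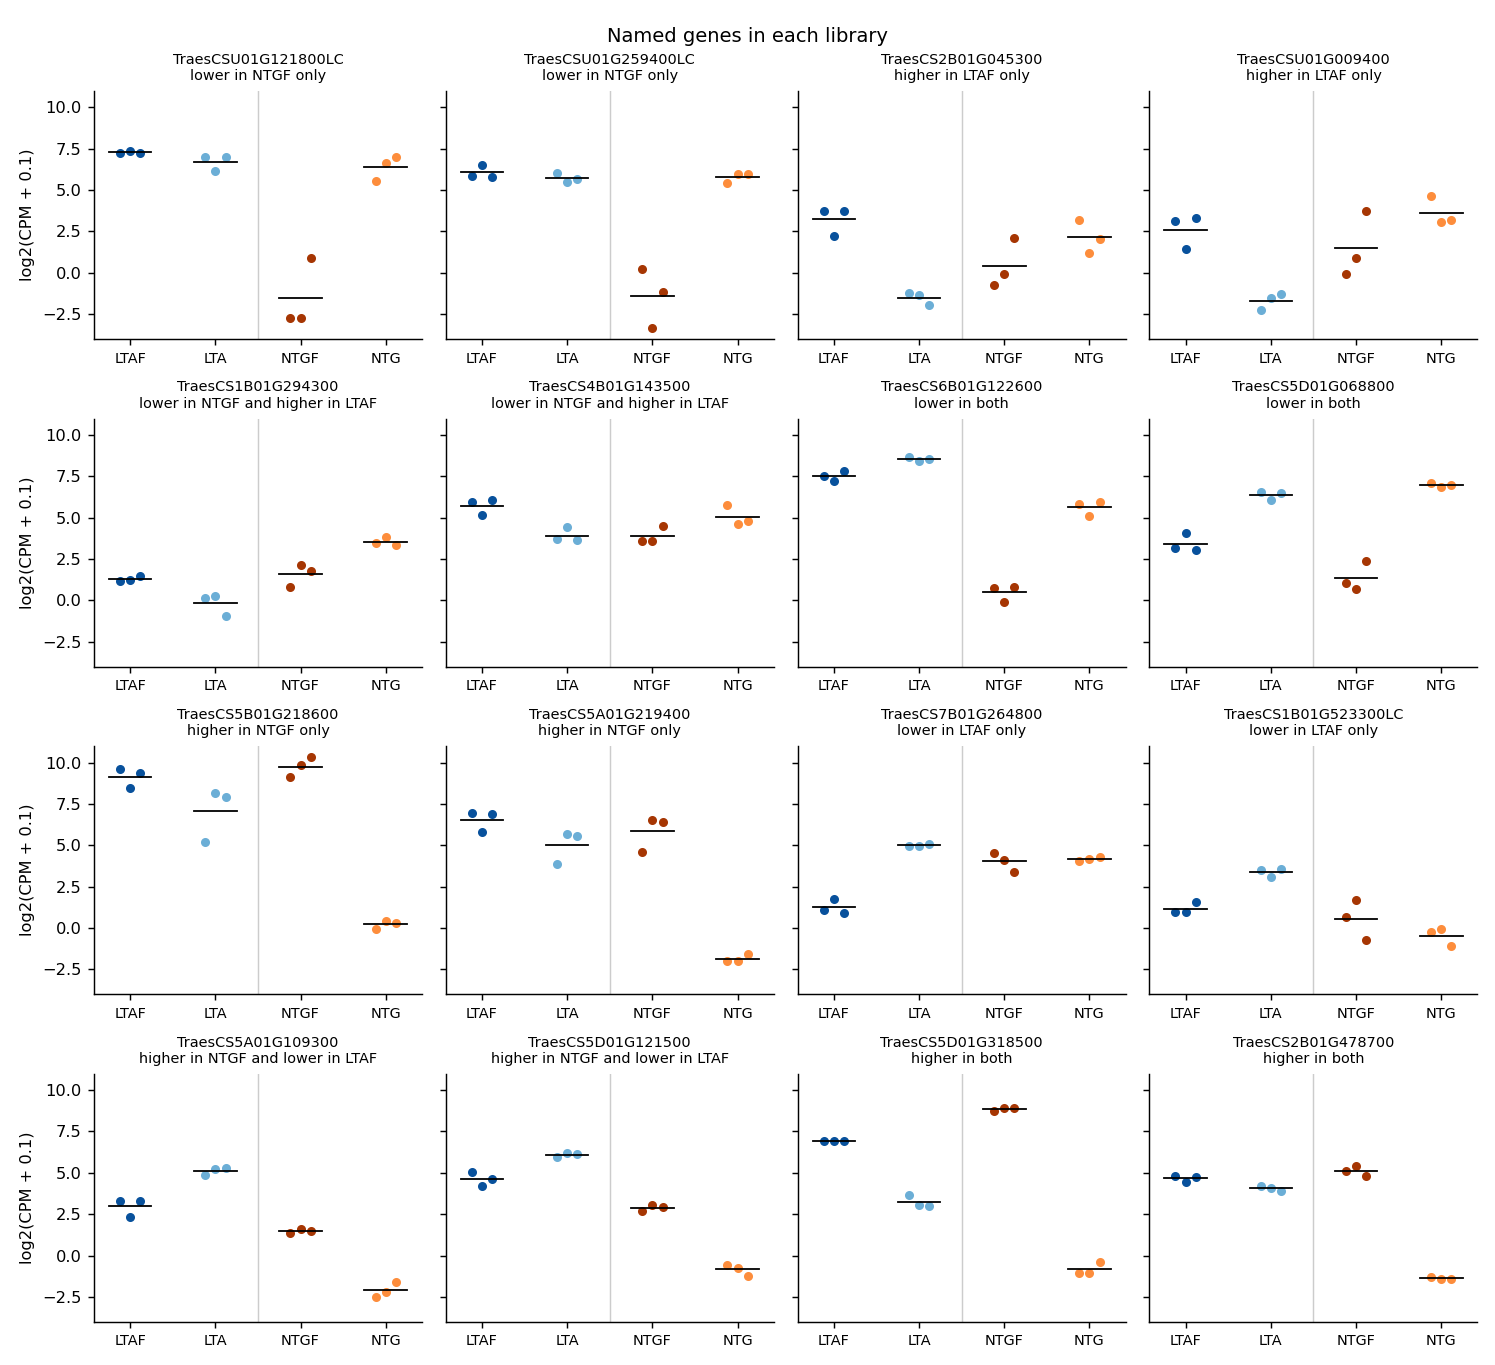
Level of the 16 genes named by pattern in each library, as log2(CPM + 0.1), with the mean of 3 libraries as a line; groups run LTAF, LTA, NTGF, NTG. The group that stands apart differs by pattern: NTGF is lowest for TraesCSU01G121800LC, LTA for TraesCS2B01G045300, LTAF for TraesCS7B01G264800 and NTG for TraesCS5B01G218600.

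The shape of the interaction was also described over all called genes by the group that stood apart, defined, after the data were seen, as a group whose distance to the nearest other group mean exceeded the range of the other 3. Among positive genes, NTGF stood below the others in 1233 (34.6%), against 7.97% of all models tested, and NTG above the others in 821 (23.0%), against 8.01%. LTA stood below in 270 (7.57%, against 3.51%) and LTAF above in 185 (5.19%, against 3.64%). Unacclimated groups were the ones that stood apart in most positive genes with such a group, as they were in negative genes. There, NTG stood below in 1358 (32.9%, against 7.35%) and NTGF above in 569 (13.8%, against 6.53%). LTAF stood below in 311 (7.54%, against 5.82%) and LTA above in 151 (3.66%, against 2.86%). No group stood apart in 1057 positive and 1733 negative genes. A group apart in one of these directions fixes the sign of the term, and the genes were chosen by the term in these same libraries. Shares above those of all models are therefore a description alone.

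**Figure D4:**
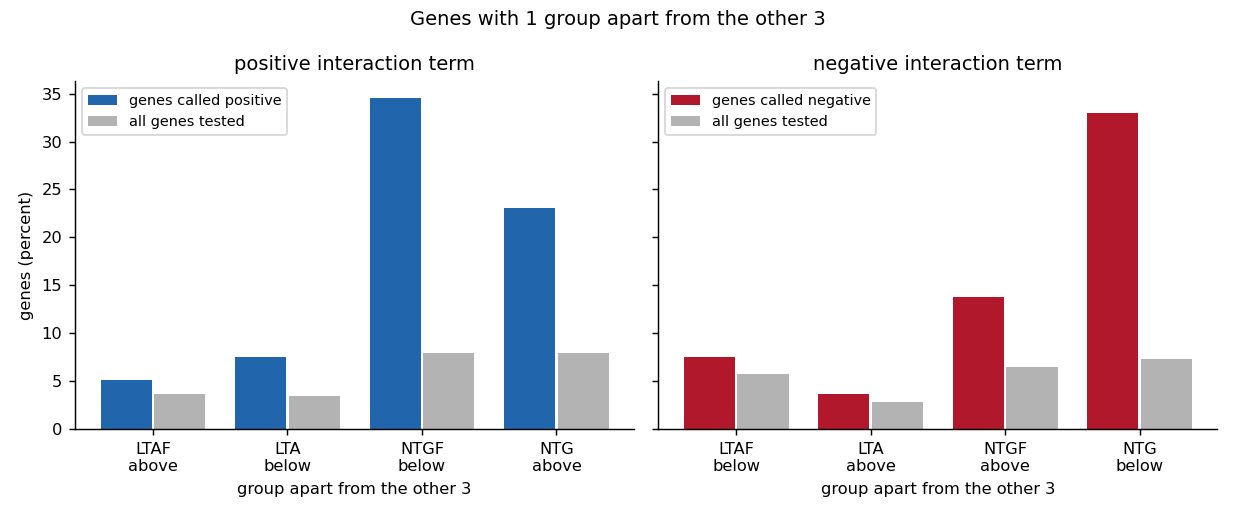
Percent of genes in which 1 group stands apart from the other 3, for genes called positive (left, blue) and negative (right, red), beside all models tested (grey). The tallest coloured bars are NTGF below (34.6%) in positive genes and NTG below (32.9%) in negative genes. The directions drawn in a panel fix the sign of the term, so the height above the grey bars is a description alone.

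Positive and negative genes differed in how much of the RNA pool they held. Positive genes took 5.26% ± 0.76 of the counts of tested genes in LTAF, 5.05% ± 0.15 in LTA, 2.10% ± 0.29 in NTGF and 6.44% ± 0.58 in NTG (SD, n = 3 each). Negative genes took 15.97% ± 1.33 in LTAF, 19.5% ± 1.11 in LTA, 16.7% ± 1.38 in NTGF and 10.6% ± 0.43 in NTG. NTGF was the lowest group for positive genes and NTG the lowest for negative genes, with no overlap with other groups in either. The genes were chosen by their term in these same libraries. A low NTGF makes a term more positive and a low NTG makes it more negative, so these shares are a description alone. By mean CPM, models were divided into 5 classes of equal size. The least abundant class was called positive in 4.36% and negative in 1.37%, and the most abundant class in 3.78% and 14.4%. The median standard error of a term was 0.80 in the least and 0.27 in the most abundant class, so a small term could be called in abundant genes that would not be detectable at the depth of rare ones. The median size of a called term was 3.50 in the least and 1.15 in the most abundant class. Median levels over the 4 groups ran from 0.70 to 2.24 log2 CPM for positive genes and from 3.02 to 4.02 for negative genes. The sizes of positive and negative terms were not compared at equal abundance.

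A few terms rested on a group with almost no counts. Models with at most 3 counts over the libraries of a single group and at least 1 CPM on average in each of the others numbered 27 for LTA, 21 for NTGF, 13 for NTG and 0 for LTAF. Of the 21 missing in NTGF, 19 were called positive, and of the 27 missing in LTA, 11 were, against 5.12% of all models tested. A missing NTGF or LTA pushes the term up by construction, so these counts are a description alone. Low-confidence models were 14 of the 21 missing in NTGF, 1 of the 27 missing in LTA and 2 of the 13 missing in NTG, against 12097 of the 69693 models tested. TraesCSU01G607400LC had 16.6, 21.7 and 15.3 CPM in LTAF, 19.1, 14.4 and 15.4 CPM in LTA, no count in any NTGF library, and 15.2, 15.1 and 13.7 CPM in NTG. Set against 3 counts over the 3 NTGF libraries as a floor, it was at least 276-fold lower in NTGF than in NTG. On the same floor its term was at least 8.25, a bound without a test. The adjusted p of 5.13e-06 (edgeR) belongs to the fitted term of 11.32. As for the stretch of chromosome 1A, plants that lack the gene and plants that stopped expressing it cannot be told apart. Of the 13 missing in NTG, 8 were called negative, against 5.91% of all models tested, and a missing NTG pushes the term down by construction. Among them, TraesCS6B01G288500 had 16.7, 17.7 and 16.8 CPM in LTAF, 7.58, 5.69 and 3.94 CPM in LTA, 8.74, 25.3 and 78.8 CPM in NTGF, and 2 counts in NTG, both in replicate 2. The NTGF libraries of this gene spread widely around those of LTAF. The ratio to NTG was 1338 in NTGF (95% exact counting interval 369.9 to 11055) and 209.5 in LTA (57.5 to 1737), intervals that cover counting error only. Its fitted term was -8.56 ± 1.33 (SE; edgeR adjusted p = 0.00703), and -7.42 without NTGF replicate 3. Without NTG replicate 2 no count is left in NTG, and no term is given. The gene was not called with limma-voom (adjusted p = 0.104; range over the alternatives 1.73e-08 to 0.104).

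Called genes lay on every chromosome. The share called ran from 9.49% on 1D to 12.2% on 5D, and was 15.1% of the 911 models marked U. The subgenomes were alike in this share, at 10.98% for A, 10.9% for B and 11.1% for D, a description without a test. High-confidence models were called positive in 4.98% and negative in 6.13%, and low-confidence models in 5.77% and 4.89%. Reads that match near-identical copies on the A, B and D subgenomes may have been divided between them, so values of single copies are uncertain.

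Along the chromosomes, 4 runs of at least 4 consecutive tested high-confidence models had the same call, a description without a test. The minimum of 4 was chosen after the data were seen. On 5B (models 217900 to 218600), 5 genes had a mean term of -6.45 and a mean level of 4.94 ± 0.60 log2 CPM in LTAF, 3.84 ± 1.37 in LTA, 5.18 ± 0.75 in NTGF and -1.38 ± 0.08 in NTG. NTG was apart from all other groups in this run, and LTA replicate 1, at 2.25, lay below the other LTA libraries, as it did for TraesCS5B01G218600, the last gene of the run. On 5D (317300 to 317600), 4 genes had a mean term of -4.28 and lay at 0.75 ± 0.49 in LTAF, 1.60 ± 0.23 in LTA, 3.47 ± 0.10 in NTGF and 0.88 ± 0.36 in NTG. The genes of this run differed: the term was -9.08 for TraesCS5D01G317600, which was under 0.1 CPM on average outside NTGF, and -2.37 to -3.13 for the others, and TraesCS5D01G317500 averaged 4.77 CPM in LTA and 3.27 CPM in NTGF. Also on 5D (248900 to 249400), 4 genes with a mean term of -1.85 lay at 3.18 ± 0.17 in LTAF, 3.18 ± 0.18 in LTA, 4.12 ± 0.44 in NTGF and 2.41 ± 0.16 in NTG. NTGF had the highest mean in TraesCS5D01G248900 and TraesCS5D01G249000, but not in TraesCS5D01G249100 (84.2 CPM in LTAF and 83.1 CPM in NTGF) or TraesCS5D01G249400 (19.1 CPM in LTA and 16.9 CPM in NTGF). The single positive run, on 5B (462800 to 463100), had a mean term of 3.84 over 4 genes, at 7.61 ± 0.43 in LTAF, 8.04 ± 0.07 in LTA, 2.55 ± 0.81 in NTGF and 6.90 ± 0.28 in NTG. In it NTGF was low in every library and the other groups were high. Neighbouring copies can share reads, and such runs need not hold independent genes.

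The number of calls depended on single libraries. Without LTAF replicate 2, 6194 genes were called positive and 6507 negative, and without LTAF replicate 1 these were 1094 and 1252. Without both LTAF replicate 2 and NTGF replicate 1 they were 5862 and 6598. In all 12 fits that leave out 1 library, 931 of the 3566 positive genes (26.1%) and 1142 of the 4122 negative genes (27.7%) stayed called. The patterns are sorted by calls in the same libraries, so the following counts describe the sorting and support nothing further. All 73 genes lower in NTGF and higher in LTAF stayed, as did 115 of the 117 with the opposite responses, against 753 of the 2647 lower in NTGF alone and 890 of the 3103 higher in NTGF alone. None of the genes with neither response called alone stayed in all 12.

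**Figure D5:**
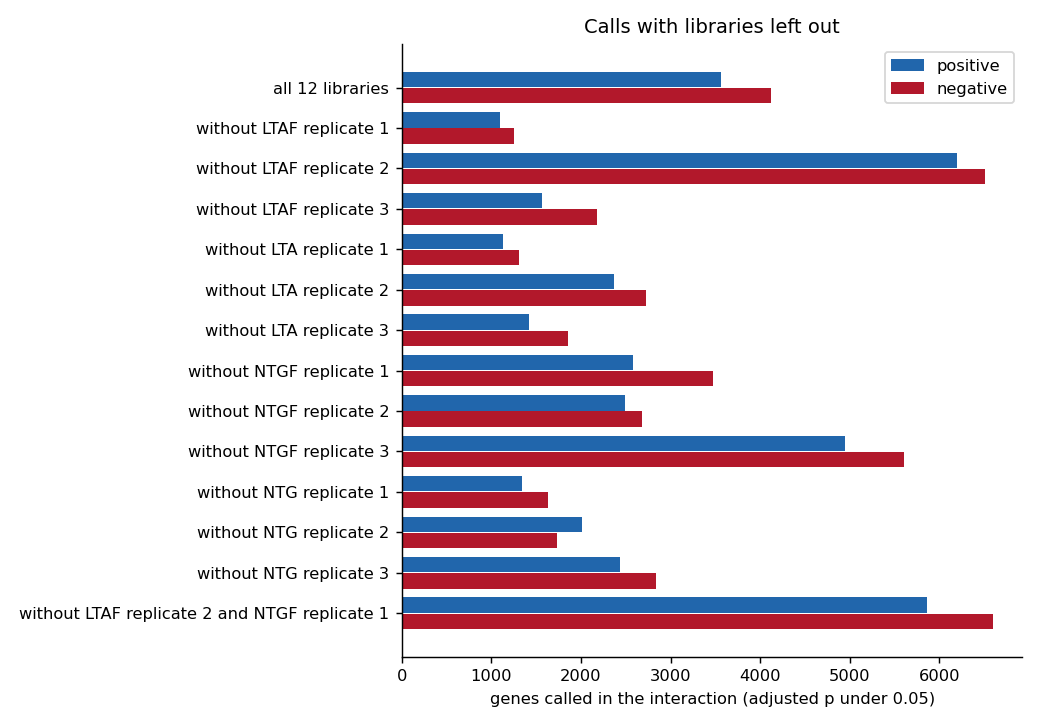
Number of genes called positive (blue) and negative (red) in the interaction with all 12 libraries and with libraries left out. The bars are longest without LTAF replicate 2 (6194 and 6507) and without LTAF replicate 2 and NTGF replicate 1 (5862 and 6598), and shortest without LTAF replicate 1 (1094 and 1252).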

How the data were processed

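For 128497 models, the authors deposited raw read counts in 12 columns, 1 per library, per the file headers, as whole numbers without normalization (82323 models are high-confidence and 46174 low-confidence by their identifiers). Trizol was used to isolate RNA, per the labels' protocols. Neither aligner, counter, build nor annotation is given in the sources used here. Column names gave the libraries.

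The filter filterByExpr (minimum count 10) kept 69693 models and at least 99.38% of each library's counts. After TMM scaling, each group had its own mean in a single fit by edgeR 4.0.16 under R 4.3.3, whose robust quasi-likelihood F test with Benjamini-Hochberg adjustment gave calls at an adjusted p under 0.05. The common biological coefficient of variation was 0.273. Totals of 17871036 to 21491305 counts set the precision, and reads without molecular identifiers make intervals and floors cover counting error only. The fit was also run on simulated counts in which only well-counted genes were changed and no library was set apart from its group. That run does not cover rare genes or outlying libraries.

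Named genes had at least 10 CPM in the highest group, at least 10 counts in each group and separated libraries, and were the 2 with the largest absolute term in each of 8 patterns, which 1106 positive and 2757 negative genes could have entered. The most abundant gene and the gene missing in 1 group with the largest term were added per direction. Members, lists and rules were chosen with earlier results of these data known. The reference table of wheat genes matched 0 identifiers, so 0 gene lists had a member. Alternatives used DESeq2 1.42.0, limma-voom (limma 3.58.1), other scalings, filters and model sets, a replicate block, and libraries left out.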

Additional observations from a re-analysis of the deposited data

Results flagged for a closer look

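Every result here was picked out because the freezing response differed between acclimated and unacclimated plants by the interaction test itself. That held for 3566 genes with a positive and 4122 genes with a negative term (edgeR, adjusted p under 0.05). The named genes with positive log2 terms were TraesCSU01G607400LC (11.32, a fitted value against a group without counts), TraesCSU01G121800LC (7.77), TraesCSU01G259400LC (7.20), TraesCS2B01G045300 (6.76), TraesCSU01G009400 (6.33), TraesCS6B01G122600 (4.22), TraesCS1B01G294300 (3.39), TraesCS4B01G143500 (3.01), TraesCS5D01G068800 (2.60) and TraesCS1D01G411300 (2.52). Those with negative log2 terms were TraesCS6B01G288500 (-8.56, with 2 counts in NTG), TraesCS5B01G218600 (-8.05), TraesCS5A01G219400 (-7.09), TraesCS5A01G109300 (-6.33), TraesCS5D01G318500 (-6.27), TraesCS2B01G478700 (-6.26), TraesCS5D01G121500 (-5.41), TraesCS7B01G264800 (-3.67), TraesCS1B01G523300LC (-3.63) and TraesCS4A01G293000 (-1.32). With 3 libraries per group, single libraries that lay far from their group were not tested for.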

How the results depend on the processing

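Fits by DESeq2 (5168 positive and 6016 negative genes), limma-voom (2797 and 3801), DESeq2 size factors (3530 and 4345), no filter (2929 and 2919), a stricter filter (3532 and 3982), no robust estimation (3673 and 4101), high-confidence models only (2792 and 3249) and without genes absent in 1 group (3531 and 4110) stayed within 1.5 times of 3566 and 4122. Library totals gave 5621 and 2169, a test against a 2-fold threshold, which is stricter by construction, 279 and 170, and leaving out LTAF replicate 2 and NTGF replicate 1, chosen after seeing the data, 5862 and 6598; the cause was not tested. Leaving out 1 library gave 1094 to 6194 positive and 1252 to 6507 negative genes: 1568 and 2178 without LTAF replicate 3, 1125 and 1311, 2368 and 2728, and 1425 and 1854 without LTA replicate 1, 2 and 3, 2682 negative without NTGF replicate 2, and 1341 and 1631 without NTG replicate 1, and 2007 and 1734 without NTG replicate 2.

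With the replicate number as a block, 1454 positive and 1699 negative genes were called. Deviations from the group means correlated between -0.44 and 0.20 over 18 same-numbered pairs, with 2 over 0.1, so the numbers were not taken as a pairing.

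Of 20 named genes, 14 kept their call in every fit that tested them. The 2-fold threshold ended the calls of TraesCS4B01G143500, TraesCS5D01G068800 and TraesCS1B01G523300LC, and calls of TraesCS4A01G293000, TraesCSU01G009400 and TraesCS6B01G288500 ended as the report gives; TraesCSU01G009400 was also not called with limma-voom, without the filter or at the 2-fold threshold, and TraesCS4A01G293000 not under the block or that threshold. Pattern counts moved more: 930 to 3809 genes were lower and 1057 to 3963 higher in NTGF alone with 1 library left out, and 4485 and 1309 with library totals. With 1 library left out, genes moving the same way in both numbered 10 to 103 (positive, higher), 6 to 51 (positive, lower) and 24 to 152 (negative, higher). A prior count of 0.5, run for the median levels of all positive and all negative genes, moved none of these 8 by more than its SD; it was not run for single patterns. At 3 libraries per group, small terms of rare genes are not detectable.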
